A study of Mus musculus with 8 samples.

Results

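The unfolded protein response and the integrated stress response were followed through 37 genes in mRNA of mouse aortic vascular smooth muscle cells, the contractile cells of the vessel wall. The 37 genes were taken by symbol from a table of 55353 gene entries, and all 37 passed the filter on low counts and were tested. They were described in 4 groups by role. There were 15 ER folding factors, 9 stress sensors and transcription factors, 9 ATF4 amino acid genes, and 4 feedback and effector genes of the integrated stress response. The group called ER folding factors includes Herpud1, which serves the degradation of ER proteins. The cells were knockout (KO) for E12, wild type (WT) for E12, KO for E47 or WT for E47, and each of the 4 genotypes had 2 libraries from separate RNA extractions. E12 and E47 are isoforms of one basic helix-loop-helix transcription factor that the gene Tcf3 encodes. All groups were primary mouse aortic cells brought back from frozen stocks, with no treatment, strain or age named. The labels give neither the knockout method nor the number of animals or cultures behind a genotype, and nothing in them says that more than 1 population of cells stood behind each. The p-values below therefore describe the spread from one extraction to the next, which can be technical.

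When unfolded proteins build up in the endoplasmic reticulum (ER), the membrane sensors IRE1 (gene Ern1), PERK (gene Eif2ak3) and ATF6 (gene Atf6) start the unfolded protein response. IRE1 splices Xbp1 mRNA into the form that encodes an active transcription factor, ATF6 is cut to release another, and together they raise chaperone genes. PERK phosphorylates the translation factor eIF2, which slows protein synthesis but favours translation of Atf4 mRNA. Other kinases that sense amino acid shortage, double-stranded RNA or low heme also phosphorylate eIF2, and the shared outcome is the integrated stress response, in which ATF4 raises genes of amino acid synthesis and uptake. Smooth muscle cells that secrete matrix depend on ER folding capacity. A count per gene shows the mRNA level and not the splicing of Xbp1, the cutting of ATF6 or the translation of Atf4.

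The promoters of the module carry short elements named after these responses. They are shown because, among the genes searched, the ER stress elements were found in the folding factor group alone. The ER stress response element (ERSE) was searched as CCAAT, 9 bases of any kind and CCACG, and ERSE-II as ATTGG, 1 base and CCACG. The core of the unfolded protein response element (UPRE) was searched as TGACGTG, the C/EBP-ATF element as TGATG, any base and AA, and the E box that E proteins can bind as CAGGTG. Both strands were searched in RefSeq windows of GRCm38.p6 from 250 bases before to 50 bases after the start, which 33 of the 37 genes had. Capitals mark the matches below, read 5′ to 3′ on the strand of the gene.
Hspa5, ERSE, chr2:34772020-34772048, plus strand: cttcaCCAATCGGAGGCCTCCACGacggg
Hspa5, UPRE core, chr2:34771920-34771964, plus strand: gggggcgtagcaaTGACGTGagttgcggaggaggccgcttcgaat
Hsp90b1, ERSE, chr10:86705521-86705564, minus strand: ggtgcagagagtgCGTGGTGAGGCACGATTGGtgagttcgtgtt
Calr, ERSE, chr8:84847062-84847106, minus strand: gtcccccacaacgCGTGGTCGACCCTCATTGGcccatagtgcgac
Canx, ERSE, chr11:50325787-50325831, minus strand: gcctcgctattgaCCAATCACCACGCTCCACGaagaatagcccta
Pdia6, ERSE, chr12:17266478-17266522, plus strand: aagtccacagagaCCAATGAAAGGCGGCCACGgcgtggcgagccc
Dnajc3, ERSE, chr14:118937814-118937858, plus strand: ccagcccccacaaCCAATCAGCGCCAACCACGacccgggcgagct
Creld2, ERSE, chr15:88819507-88819551, plus strand: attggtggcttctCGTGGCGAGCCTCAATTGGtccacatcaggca
Herpud1, C/EBP-ATF element then ERSE-II, chr8:94386304-94386398, plus strand: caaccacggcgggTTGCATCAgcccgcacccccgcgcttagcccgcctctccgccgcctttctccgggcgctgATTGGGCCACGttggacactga
Asns, C/EBP-ATF element, chr6:7693216-7693243, minus strand: tcccagccacaTGATGAAActtcccgca
Slc7a11, C/EBP-ATF element on each strand, chr3:50443640-50443692, minus strand: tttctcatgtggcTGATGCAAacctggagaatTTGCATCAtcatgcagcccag
Chac1, C/EBP-ATF element, chr2:119351032-119351072, plus strand: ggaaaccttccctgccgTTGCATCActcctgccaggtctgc
Atf3, C/EBP-ATF element, chr1:191183420-191183460, minus strand: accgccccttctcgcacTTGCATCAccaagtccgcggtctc
Nupr1, C/EBP-ATF element, chr7:126625562-126625591, minus strand: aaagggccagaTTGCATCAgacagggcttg
The stretches of Hspa5 around its ERSE, of Asns and of Nupr1 lie before the RefSeq start used here. They also lie inside an exon that GENCODE M21 annotates for the same gene. The other stretches overlap no annotated exon.

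An ERSE was present in the windows of 7 of the 13 ER folding factors that had one, Hspa5, Hsp90b1, Calr, Canx, Pdia6, Dnajc3 and Creld2, and ERSE-II in Dnajb11 and Herpud1. Of the 32851 windows of all genes, 0.119% held an ERSE and 0.0365% an ERSE-II. The windows of the other 20 genes held neither. The UPRE core was found in Hspa5, against 2.01% of all windows. The C/EBP-ATF element was found in Herpud1, Atf3, Nupr1, Asns, Slc7a11, Trib3 and Chac1, against 3.97% of all windows. The E box was found in Hsp90b1, Dnajb9, Xbp1, Eif2ak3, Atf4 and Atf5, against 20.2% of all windows. Matches of different elements did not overlap in the windows of the module, and a match is a description of these letters and not of binding.

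**Figure D1:**
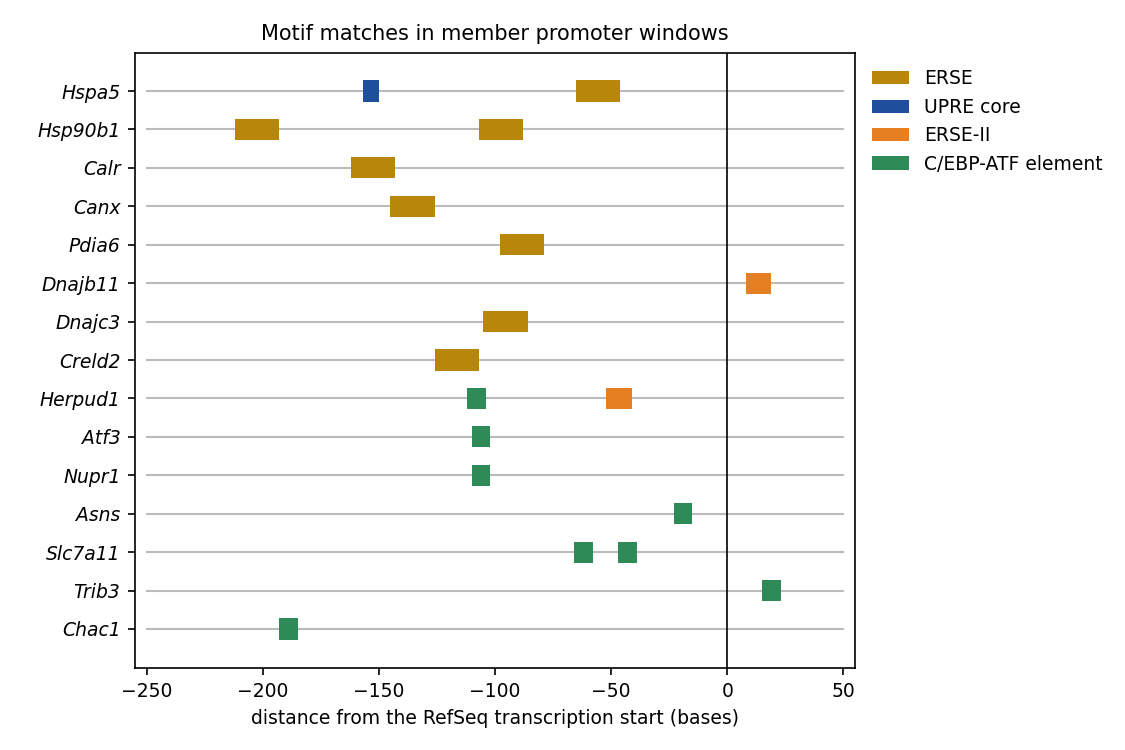
Matches of 4 elements in the promoter windows of the 15 module genes that held one of them. The horizontal axis is the distance in bases from the RefSeq start, each grey line is a window from 250 bases before to 50 bases after it, and each coloured block is a match. ERSE and ERSE-II blocks lie in genes of the folding factor group, and C/EBP-ATF blocks in Herpud1, Atf3, Nupr1, Asns, Slc7a11, Trib3 and Chac1.

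Total counts per library ran from 13909230 to 27517374. The 2 E12 WT libraries differed from each other more than those of the other genotypes, with a chi-square per degree of freedom over genes of 14.3, against 4.85 to 5.20 in the other 3 pairs. Levels are given as CPM, the counts of a gene in every 1000000 counts of its library, with library sizes adjusted by edgeR's TMM factors. Tcf3 was at 145 and 143 CPM in E12 KO, against 109 and 107 CPM in E12 WT, and at 128 and 128 CPM in E47 KO, against 94.5 and 93.7 CPM in E47 WT. The count per gene does not separate the exons of the isoforms, so it does not check which one a library had lost. The 4 genotypes also differed in marker genes. The libraries of a genotype lay close together in summed smooth muscle and mesothelial markers. Some smaller sums lay further apart, such as macrophage markers at 2.90 and 1.56 CPM in E12 KO. Acta2, the smooth muscle actin, was at 1626 and 1650 CPM in E12 KO, against 1929 and 1978 CPM in E12 WT, and at 2117 and 2098 CPM in E47 KO, against 3693 and 3439 CPM in E47 WT. Myh11, the smooth muscle myosin, averaged 2.42 CPM in E12 KO, against 7.44 CPM in E12 WT, and 6.92 CPM in E47 KO, against 98.2 CPM in E47 WT. Cnn1, or calponin, averaged 2.31 CPM in E12 KO, against 7.34 CPM in E12 WT, and 19.8 CPM in E47 KO, against 104 CPM in E47 WT. Myh11 and Cnn1 were thus low in 3 of the 4 genotypes, while Acta2 was abundant in all 4. Of 9 smooth muscle markers, 3 were higher and 5 lower in E12 KO, where 21.9% of all genes tested were called higher and 24.5% lower. In E47 KO, 1 was higher and 8 were lower, where 27.7% of all genes were called higher and 27.5% lower. They summed to 1812 and 1840 CPM in E12 KO, against 2110 and 2167 CPM in E12 WT, and to 2413 and 2375 CPM in E47 KO, against 4629 and 4382 CPM in E47 WT. Summed endothelial markers stood at 465 to 489 CPM in E47 WT and at 2.07 to 9.12 CPM in the other 6 libraries. Summed mesothelial markers were at 872 to 891 CPM in E12 KO, against 1473 to 1583 CPM in E12 WT, and at 397 to 411 CPM in E47 KO, against 94.2 to 99.6 CPM in E47 WT. Summed fibroblast markers were at 91.6 to 114 CPM in E12 KO, against 66.6 to 70.6 CPM in E12 WT, and at 122 to 133 CPM in E47 KO, against 112 to 117 CPM in E47 WT. The 6 markers in this sum went both ways, with log2 changes of -1.15 to 4.22 in E12 and -2.36 to 5.54 in E47. In E12 WT against E47 WT their range was -5.70 to 4.91. Macrophage markers summed to 1.56 to 15.3 CPM, with Itgam at 0 in all 8 libraries. Exons of Gm49368 on the same strand cover 68.7% of the Itgam exons, so that 0 is less certain. The part of these differences in the results below was not tested, and fewer cells of a type and less RNA per cell cannot be told apart in bulk RNA.

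All 15 ER folding factors fell in E12 KO relative to E12 WT. Changes were tested with edgeR's quasi-likelihood test and called past it at a Benjamini-Hochberg adjusted p under 0.05 over 13992 genes. In this comparison 24.5% of all genes tested were called lower and 21.9% higher. No folding factor was called higher, by edgeR, by an unadjusted p under 0.05 or by DESeq2. The median log2 change of the 15 was -0.58, in a range of -1.13 to -0.33, beside a median of -0.0082 over all genes tested. Their summed level was 6672 and 6950 CPM in E12 KO, against 9905 and 9801 CPM in E12 WT. As a share of all counts this was 0.708% and 0.719% in E12 KO, against 0.993% and 0.943% in E12 WT. The count of 15 was the same in all 13 alternative settings.

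Hspa5 (chromosome 2, 34771970 to 34777547, plus strand, GRCm38), the ER chaperone BiP that also holds the sensors inactive, was at 998 and 1043 CPM in E12 KO, against 1647 and 1616 CPM in E12 WT. Hsp90b1, the ER member of the HSP90 family, was at 1036 and 1105 CPM in E12 KO, against 1607 and 1585 CPM in E12 WT. The libraries of the 2 genotypes lay far apart in both genes, with log2 changes of -0.68 (SE 0.0631, adjusted p = 5.5e-07) in Hspa5 and -0.58 (SE 0.0655, adjusted p = 4.4e-06) in Hsp90b1. Exons of other genes cover 15.7% of the Hsp90b1 exons, and since strand was not kept its count is less certain. Per kilobase of exon, Calr was the most abundant folding factor, with a mean over the genotypes of 503 CPM per kilobase, and Dnajb9 the least, with 13.6. The median folding factor was at 57.1 CPM per kilobase.

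The 4 deepest falls in E12 KO were those of Hyou1, Manf, Creld2 and Sdf2l1. Hyou1, a large ER chaperone that exchanges the nucleotide on BiP, was at 171 and 187 CPM in E12 KO, against 381 and 401 CPM in E12 WT. Manf, a small secreted ER protein that binds BiP, was at 81.7 and 84.0 CPM in E12 KO, against 190 and 170 CPM in E12 WT. These were log2 changes of -1.13 (SE 0.0752) in Hyou1 and -1.12 (SE 0.0782) in Manf, and the 2 genotypes did not overlap in either gene. With 2 libraries against 2 such separation was common, since over all genes tested 36.3% had both E12 KO libraries under both E12 WT libraries and 35.0% had them above. In E47 these shares were 38.5% with both E47 KO libraries under and 39.2% with them above. Exons of other genes cover 9.25% of the Manf exons, so its count is less certain. Creld2, an ER-resident protein raised by ER stress, was at 33.6 and 33.1 CPM in E12 KO, against 64.6 and 63.8 CPM in E12 WT. Sdf2l1, a companion of the BiP cochaperone Dnajb11, was at 40.5 and 35.0 CPM in E12 KO, against 73.9 and 67.3 CPM in E12 WT. Their log2 changes were -0.95 and -0.90, with all E12 KO libraries under all E12 WT libraries.

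The BiP cochaperones Dnajc3, Dnajb9 and Dnajb11 also fell. Dnajc3, which also restrains PERK, was at 149 and 164 CPM in E12 KO, against 246 and 275 CPM in E12 WT (log2 change -0.74). Dnajb9, which directs BiP to IRE1 and to proteins bound for degradation, was at 20.4 and 19.7 CPM in E12 KO, against 32.4 and 29.3 CPM in E12 WT (-0.62). Dnajb11 was at 142 and 145 CPM in E12 KO, against 211 and 208 CPM in E12 WT (-0.55). None of these 3 overlapped between the genotypes, a separation that 36.3% of all genes showed in this direction. The protein disulfide isomerases Pdia6, Pdia4 and Pdia3, which form and rearrange disulfide bonds, changed by -0.48, -0.41 and -0.38. The lectin chaperones Calr and Canx, which fold glycoproteins, changed by -0.47 and -0.33, and Herpud1, part of the complex that sends ER proteins to the proteasome, by -0.46. Canx had the smallest change of the group, at 789 and 862 CPM in E12 KO, against 1009 and 1069 CPM in E12 WT.

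In E47 KO, 13 of the 15 ER folding factors fell relative to E47 WT. Unlike the count in E12, that of 13 was not kept in every alternative setting, and it was 9 with no filter. Over all genes tested, 27.5% were called lower in E47 KO and 27.7% higher. No folding factor was called higher by edgeR, by an unadjusted p under 0.05 or by DESeq2, and the median log2 change was -0.32, beside 0.0092 over all genes. The summed level was 7896 and 7666 CPM in E47 KO, against 8876 and 8950 CPM in E47 WT. As a share of all counts, without TMM scaling, it was 0.826% and 0.794% in E47 KO, against 0.831% and 0.834% in E47 WT, so the genotypes lay close together on that scale. The same 13 genes also fell in E12 KO, and the 2 that did not pass in E47 were Canx and Pdia3. Pdia3 was at 1366 and 1365 CPM in E47 KO, against 1302 and 1205 CPM in E47 WT (log2 change 0.12, adjusted p = 0.13). When libraries were scaled by their total counts instead of TMM, the median of all genes moved by 0.16 in E47. Only Hsp90b1, Pdia6, Dnajb9, Dnajb11, Dnajc3 and Hyou1 then fell, and Pdia3 rose (log2 change 0.28, adjusted p = 0.0033).

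Hyou1 had the deepest fall in this comparison too, at 268 and 261 CPM in E47 KO, against 409 and 459 CPM in E47 WT (log2 change -0.72, SE 0.0742). Dnajb11 was at 154 and 154 CPM in E47 KO, against 236 and 229 CPM in E47 WT (-0.59, SE 0.0624). Dnajb9 was at 34.9 and 35.1 CPM in E47 KO, against 52.4 and 52.1 CPM in E47 WT (-0.58, SE 0.0750). In these 3 genes all E47 KO libraries lay under all E47 WT libraries, as in 38.5% of all genes tested. Pdia6 changed by -0.45, Dnajc3 by -0.41, Sdf2l1 by -0.34, Hsp90b1 by -0.33 and Manf by -0.32. Herpud1 changed by -0.26 and Creld2 by -0.23. Both of these calls were lost under total-count scaling. That of Creld2 was also lost with no filter and in 2 of the 8 settings that left out 1 library. Hspa5 was at 1139 and 1123 CPM in E47 KO, against 1256 and 1288 CPM in E47 WT, a log2 change of -0.17 (SE 0.0629, adjusted p = 0.033). Calr and Pdia4 also changed by -0.17, and the calls of Hspa5, Calr and Pdia4 were lost in 6 of the 8 settings that left out 1 library.

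**Figure D2:**
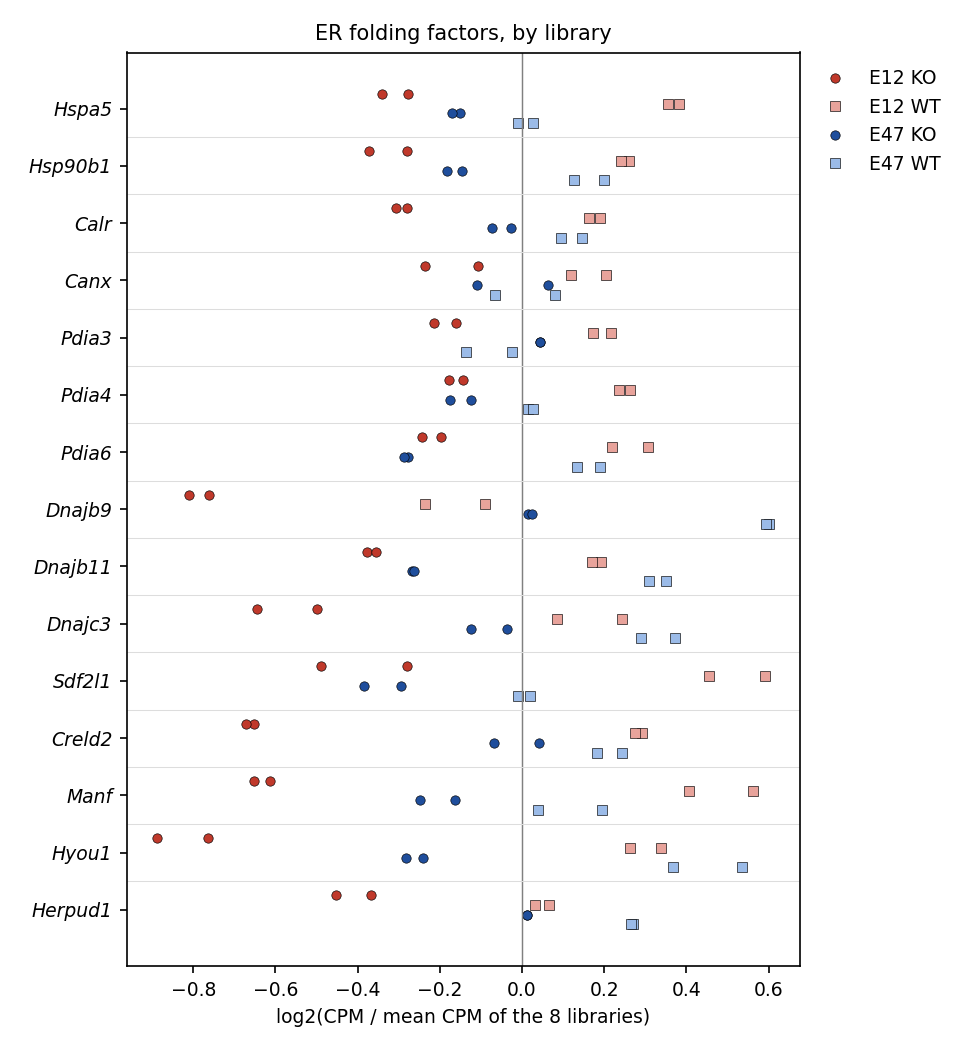
Level of each of the 15 ER folding factors in the 8 libraries, as the log2 of its CPM over the mean CPM of the 8 libraries. Red circles are E12 KO, pink squares E12 WT, dark blue circles E47 KO and light blue squares E47 WT, with 2 points per genotype. E12 KO is the lowest genotype in 14 of the 15 genes, and the exception is Pdia6.

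The test of the difference between the 2 knockout changes was past the threshold for 11 of the 15 folding factors, and in all 11 the E12 change lay below the E47 change. Over all genes, 25.7% were called with the E12 change below and 22.9% with it above. The 11 were Hspa5, Hsp90b1, Calr, Canx, Pdia3, Pdia4, Dnajc3, Sdf2l1, Creld2, Manf and Hyou1. No folding factor was called with the E12 change above, by edgeR, by an unadjusted p under 0.05 or by DESeq2. The difference was -0.80 (SE 0.109) in Manf, -0.72 (SE 0.103) in Creld2 and -0.51 (SE 0.0889) in Hspa5. In Pdia6, Dnajb9, Dnajb11 and Herpud1 it was between -0.20 and 0.05 and did not pass. The number past the test fell to 7 without E12 KO replicate 1, without E47 KO replicate 1 or without E47 WT replicate 1, among which calls of Hsp90b1, Canx, Pdia4 and Dnajc3 were lost.

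Folding factors with and without an ERSE or ERSE-II match had similar median changes. The 9 with a match had a median log2 change of -0.55 in E12 and -0.26 in E47. The 4 whose window held neither, Pdia3, Pdia4, Dnajb9 and Sdf2l1, had medians of -0.52 in E12 and -0.26 in E47. Hyou1 and Manf, which had the deepest falls in E12, had no window and are in neither group. These are descriptions of small groups, with no test, and only exact matches within the windows were counted.

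The sensors and transcription factors of the module mostly fell as well, and their members split between the knockouts. In E12 KO, 6 of the 9 fell, 1 rose and 2 did not pass. In E47 KO, 5 fell, 1 rose and 3 did not pass. Median log2 changes were -0.54 in E12 and -0.37 in E47. These counts were the same in all 13 alternatives of each comparison. The background shares are those given above, between 21.9% and 27.7% in each direction.

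Ern1, which encodes IRE1, was at 22.9 and 22.4 CPM in E12 KO, against 34.0 and 37.1 CPM in E12 WT (log2 change -0.64, SE 0.0848). It was at 30.0 and 32.9 CPM in E47 KO, against 57.1 and 55.4 CPM in E47 WT (-0.84, SE 0.0783). Both knockouts were under their wild types without overlap, as in 36.3% of all genes in E12 and 38.5% in E47. Eif2ak3, which encodes PERK, was at 34.7 and 35.7 CPM in E12 KO, against 48.6 and 46.3 CPM in E12 WT (-0.43), and at 35.0 and 36.0 CPM in E47 KO, against 50.3 and 50.5 CPM in E47 WT (-0.51). Exons of another gene on the other strand cover 8.05% of the Eif2ak3 exons. The third sensor gene, Atf6, went a different way, at 145 and 149 CPM in E12 KO, against 147 and 161 CPM in E12 WT (-0.06, adjusted p = 0.50), and at 69.4 and 66.8 CPM in E47 KO, against 92.6 and 99.6 CPM in E47 WT (-0.50, SE 0.0736). The difference between the Atf6 changes was 0.44 (SE 0.102, adjusted p = 0.0025).

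Xbp1, the transcription factor downstream of IRE1, was at 87.2 and 81.7 CPM in E12 KO, against 129 and 117 CPM in E12 WT. It was at 112 and 109 CPM in E47 KO, against 121 and 120 CPM in E47 WT. The E12 change was -0.54 (SE 0.0716, adjusted p = 1.9e-05), the E47 change was -0.12 (adjusted p = 0.15), and the difference of -0.42 passed the test (adjusted p = 0.0030). Atf4, the central factor of the integrated stress response, was at 134 and 137 CPM in E12 KO, against 237 and 223 CPM in E12 WT. It was at 180 and 185 CPM in E47 KO, against 210 and 194 CPM in E47 WT. The fall in E12 was -0.76 (SE 0.0685, adjusted p = 3.8e-07), and the E47 change of -0.14 did not pass (adjusted p = 0.085). The difference between the Atf4 changes was -0.62 (SE 0.0962, adjusted p = 9.6e-05).

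Atf3 and Atf5, transcription factors that ATF4 activates, moved in opposite directions in the 2 knockouts and against each other. Atf3 was at 7.34 and 7.27 CPM in E12 KO, against 13.9 and 16.9 CPM in E12 WT, and at 18.8 and 16.2 CPM in E47 KO, against 6.45 and 7.13 CPM in E47 WT. It fell by 1.07 on the log2 scale in E12 (SE 0.135) and rose by 1.36 in E47 (SE 0.131), with no overlap in either pair. Such separation was common, with 36.3% of all genes lower in E12 and 39.2% higher in E47. The difference, -2.42 (SE 0.188, adjusted p = 7.0e-08), was the largest in size of the module. Atf5 was at 187 and 218 CPM in E12 KO, against 124 and 126 CPM in E12 WT, and at 214 and 204 CPM in E47 KO, against 274 and 265 CPM in E47 WT. It rose by 0.69 in E12 (SE 0.0773) and fell by 0.37 on the log2 scale in E47 (SE 0.0756). Exons of Il4i1 and Nup62, on the other strand, cover 4.11% of the Atf5 exons.

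The remaining transcription regulators were Nupr1 and Ddit3. Nupr1, a small stress-induced chromatin protein, was at 121 and 121 CPM in E12 KO, against 198 and 195 CPM in E12 WT (log2 change -0.70), and at 156 and 143 CPM in E47 KO, against 231 and 218 CPM in E47 WT (-0.59). Ddit3, which encodes the death-promoting factor CHOP, was at 28.6 and 26.5 CPM in E12 KO, against 29.0 and 27.2 CPM in E12 WT, and at 30.1 and 34.1 CPM in E47 KO, against 35.3 and 35.6 CPM in E47 WT. Neither change of Ddit3 passed the test, at -0.03 (adjusted p = 0.83) in E12 and -0.15 (adjusted p = 0.15) in E47. Other annotated entries overlap 10.9% of the Ddit3 exons, so its count is less certain.

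The ATF4 amino acid genes went against the folding factors in E12 KO. Of the 9, 6 rose, 1 fell and 2 did not pass in E12 KO, with a median log2 change of 0.31, although Atf4 itself fell there. Over all genes tested, 21.9% were called higher and 24.5% lower in E12 KO. In E47 KO, 2 rose, 6 fell and 1 did not pass, with a median of -0.24, where 27.7% of all genes were called higher and 27.5% lower. Their summed level was 866 and 942 CPM in E12 KO, against 722 and 721 CPM in E12 WT, and 749 and 703 CPM in E47 KO, against 799 and 794 CPM in E47 WT. The difference between the 2 changes passed for 7 of the 9, with the E12 change above in Asns, Phgdh, Shmt2, Mthfd2, Slc7a11 and Slc7a5 and below in Slc3a2. By the same test, 22.9% of all genes were called with the E12 change above and 25.7% with it below.

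All 3 serine synthesis genes were called higher in E12 KO, Psph only narrowly. Phgdh, the first enzyme of serine synthesis, was at 174 and 176 CPM in E12 KO, against 115 and 106 CPM in E12 WT (log2 change 0.66, SE 0.0718, adjusted p = 2.9e-06). Psat1, the second enzyme, was at 173 and 187 CPM in E12 KO, against 118 and 112 CPM in E12 WT (0.64, SE 0.0818, adjusted p = 1.4e-05). Neither gene overlapped between these genotypes, a separation that 35.0% of all genes tested showed in this direction. Psat1 was the one gene of the group that rose in both knockouts, at 122 and 103 CPM in E47 KO, against 67.8 and 68.5 CPM in E47 WT (0.72, SE 0.0840). Phgdh was at 142 and 128 CPM in E47 KO, against 156 and 154 CPM in E47 WT (-0.20, adjusted p = 0.030), a call that was lost in 3 of the 8 settings that left out 1 library, with no filter, and under total-count scaling (-0.04). Psph, the last enzyme of the path, was at 22.3 and 22.2 CPM in E12 KO, against 18.9 and 16.9 CPM in E12 WT, with a log2 change of 0.31 and an adjusted p just under the threshold, and its call was lost by DESeq2, with DESeq2 size factors and in 3 of the 8 settings that left out 1 library. Exons of Cct6a on the other strand cover 10.4% of the Psph exons.

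Asns, which makes asparagine and is a classic ATF4 target, was at 94.5 and 106 CPM in E12 KO, against 72.4 and 75.4 CPM in E12 WT (log2 change 0.44, SE 0.0753). It was at 67.5 and 64.6 CPM in E47 KO, against 83.5 and 81.5 CPM in E47 WT (-0.32, SE 0.0756). The direction was opposite in the 2 knockouts without overlap of the libraries, and the difference was 0.76 (SE 0.107, adjusted p = 3.6e-05). Without overlap, 35.0% of all genes were higher in E12 KO and 38.5% lower in E47 KO. Under total-count scaling the E47 call of Asns was lost (-0.16, adjusted p = 0.073). In the mitochondrial folate path, Shmt2, which takes the carbon unit from serine, was at 93.3 and 101 CPM in E12 KO, against 76.8 and 82.5 CPM in E12 WT (0.29), and at 66.4 and 62.4 CPM in E47 KO, against 80.7 and 71.7 CPM in E47 WT (-0.24). Each Shmt2 call was lost in 2 of the 8 settings that left out 1 library, and the E47 call also under total-count scaling (-0.08, adjusted p = 0.41). Mthfd2, the next enzyme of that path, was at 65.6 and 73.3 CPM in E12 KO, against 70.1 and 73.0 CPM in E12 WT (-0.04, adjusted p = 0.68). It was at 45.7 and 42.3 CPM in E47 KO, against 76.4 and 77.7 CPM in E47 WT (-0.81, SE 0.0781, adjusted p = 6.0e-07).

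The transporters were the light chains Slc7a5 and Slc7a11 and their shared heavy chain Slc3a2. Slc7a5, the large neutral amino acid carrier, was at 106 and 132 CPM in E12 KO, against 90.5 and 94.9 CPM in E12 WT (log2 change 0.36, SE 0.0934). It was at 109 and 101 CPM in E47 KO, against 148 and 157 CPM in E47 WT (-0.54, SE 0.0919). Slc3a2, the heavy chain that pairs with both carriers, was at 134 and 138 CPM in E12 KO, against 157 and 154 CPM in E12 WT (-0.19, adjusted p = 0.022), and at 176 and 184 CPM in E47 KO, against 157 and 156 CPM in E47 WT (0.20, adjusted p = 0.014). Slc7a5 and Slc3a2 were called in opposite directions in each knockout. Each Slc3a2 call was lost in 3 of the 8 settings that left out 1 library, and its E12 call also under total-count scaling and with no filter. Slc7a11, the cystine carrier, was at 3.81 and 5.77 CPM in E12 KO, against 3.32 and 5.38 CPM in E12 WT, so these genotypes overlapped (log2 change 0.14, adjusted p = 0.67). Its sign in E12 turned negative without E12 KO replicate 2 or without E12 WT replicate 1. It was at 4.57 and 4.88 CPM in E47 KO, against 12.03 and 12.67 CPM in E47 WT (-1.39, SE 0.191). Per kilobase of exon it was the least abundant gene of the module, at a mean of 0.471 CPM per kilobase, while Phgdh led the group at 57.9.

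Without E12 KO replicate 2, the number of ATF4 amino acid genes called higher in E12 KO fell to 3, since the calls of Psph, Shmt2 and Slc7a5 were lost. The call of Shmt2 was also lost without E12 WT replicate 1, and that of Psph without E12 KO replicate 1 or without E12 WT replicate 2. By DESeq2 and with DESeq2 size factors the count was 5. The E12 calls of Asns, Psat1 and Phgdh were past the test in all 13 alternatives.

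**Figure D3:**
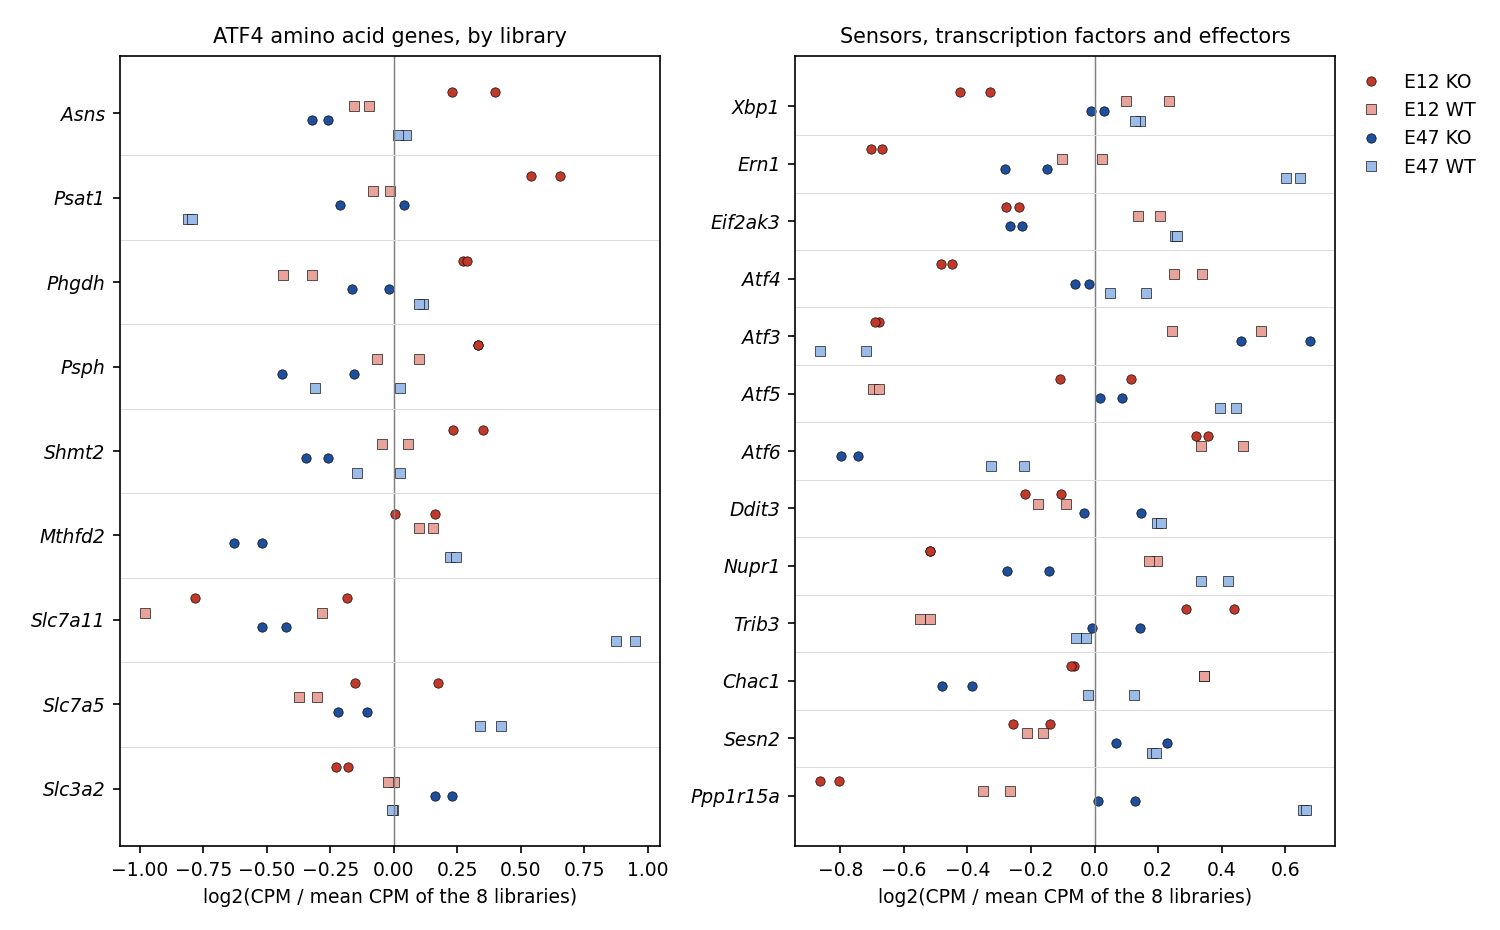
Level of the 9 ATF4 amino acid genes (left) and of the other 13 sensors, transcription factors and effectors (right) in the 8 libraries, as the log2 of the CPM over the mean CPM of the 8 libraries. Red circles are E12 KO, pink squares E12 WT, dark blue circles E47 KO and light blue squares E47 WT. E12 KO is the highest genotype in Asns, Psat1, Phgdh, Psph and Shmt2 and the lowest in Atf4, Xbp1 and Ern1.

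Of the 4 feedback and effector genes, Chac1 and Ppp1r15a fell in both knockouts and Trib3 rose in E12 KO. Trib3, a pseudokinase that restrains ATF4, was at 25.9 and 28.7 CPM in E12 KO, against 14.5 and 14.8 CPM in E12 WT (log2 change 0.90, SE 0.0981, adjusted p = 2.9e-06). It was at 21.1 and 23.4 CPM in E47 KO, against 20.3 and 20.8 CPM in E47 WT (0.11, adjusted p = 0.36), and the difference of 0.79 passed the test (adjusted p = 0.00022). Under total-count scaling Trib3 was past the test in E47 as well, at 0.26 (adjusted p = 0.027). Ppp1r15a, the phosphatase subunit GADD34 that reverses eIF2 phosphorylation, was at 30.4 and 29.1 CPM in E12 KO, against 41.6 and 44.1 CPM in E12 WT (-0.52), and at 53.5 and 58.0 CPM in E47 KO, against 83.7 and 84.2 CPM in E47 WT (-0.59). Chac1, which breaks down glutathione, was at 27.5 and 27.3 CPM in E12 KO, against 36.6 and 36.5 CPM in E12 WT (-0.41), and at 22.0 and 20.6 CPM in E47 KO, against 31.4 and 28.4 CPM in E47 WT (-0.47). Both genes were lower in all KO libraries than in the libraries of their wild type, as were 36.3% of all genes in E12 and 38.5% in E47. Sesn2, which restrains mTORC1 when leucine is low, did not pass, at -0.01 (adjusted p = 0.92) in E12 and -0.04 (adjusted p = 0.69) in E47. No gene of this group was called higher in E47 KO by edgeR, by an unadjusted p under 0.05 or by DESeq2.

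**Figure D4:**
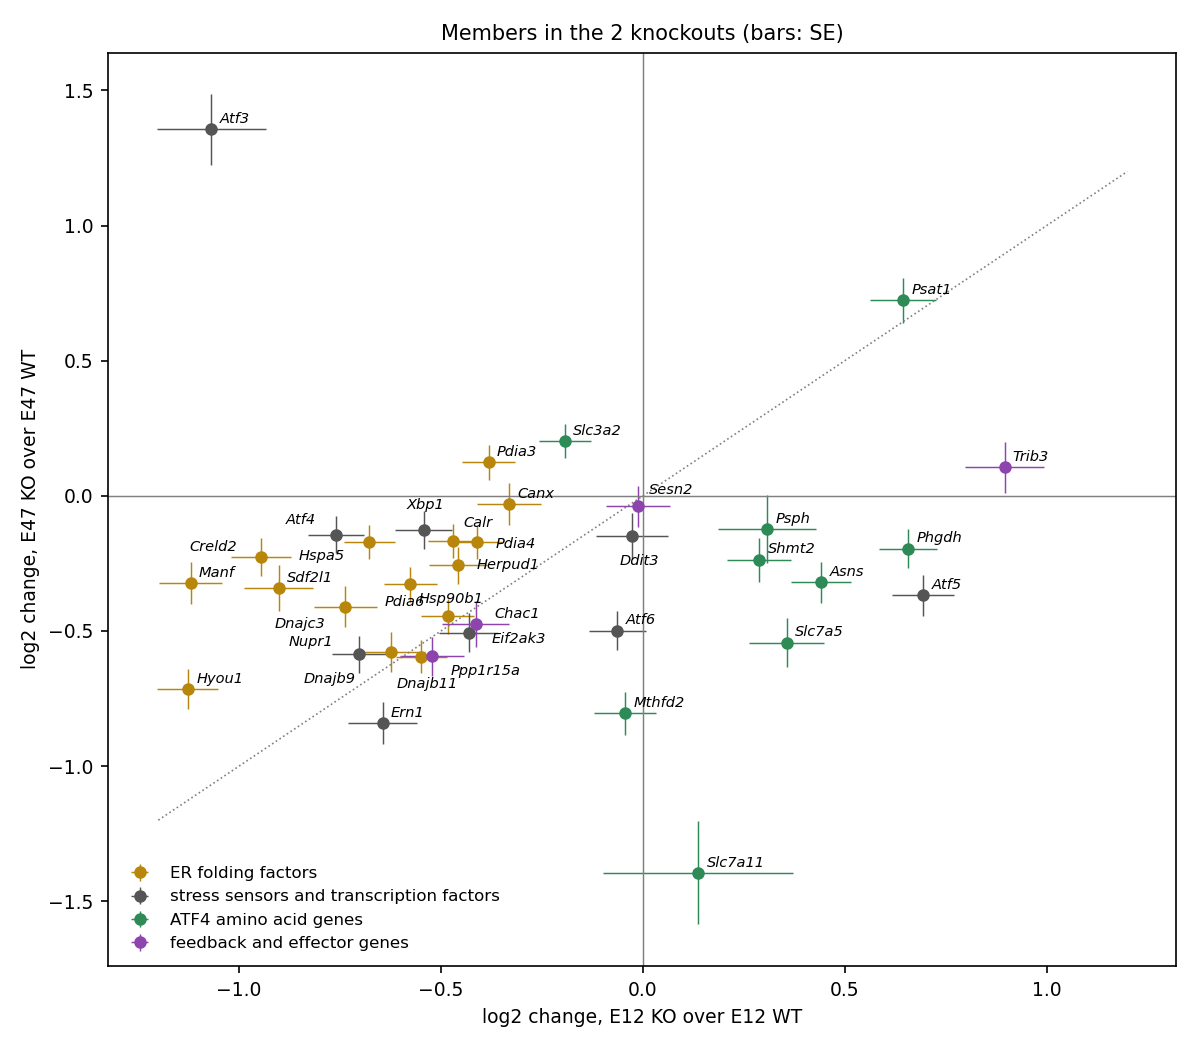
Log2 change of each of the 37 genes in E12 KO over E12 WT (horizontal) against that in E47 KO over E47 WT (vertical), with bars of 1 SE and the dotted line marking equal changes. Folding factors sit at negative E12 changes and mostly above the dotted line, and Asns, Phgdh, Shmt2 and Slc7a5 sit at positive E12 and negative E47 changes.

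**Figure D5:**
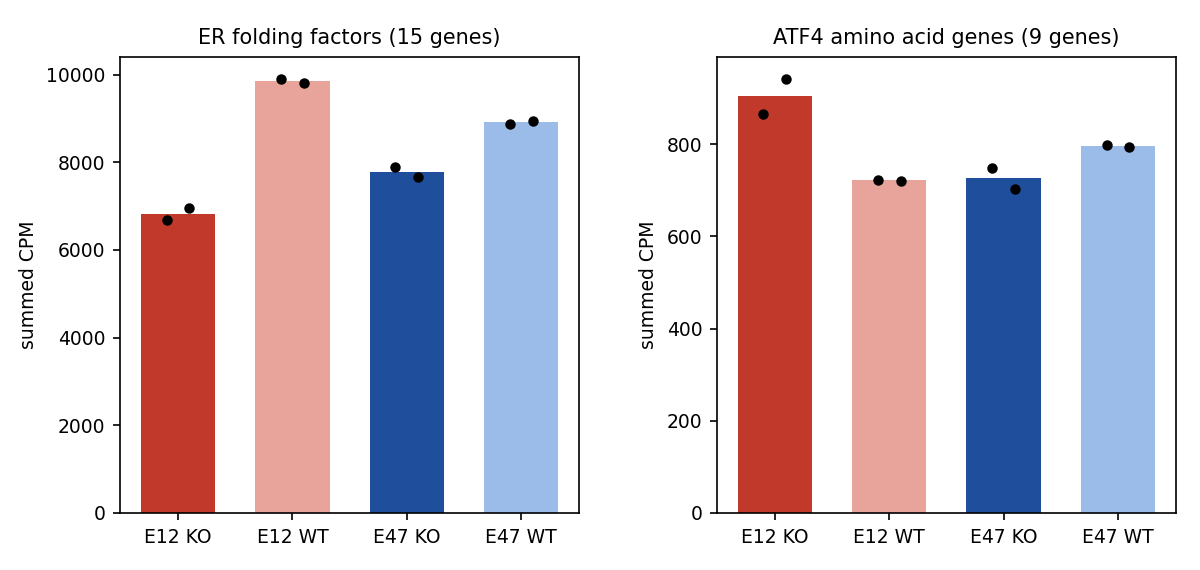
Summed CPM of the 15 ER folding factors (left) and the 9 ATF4 amino acid genes (right) in each genotype. Bars are the means of 2 libraries and points the libraries. Folding factors were lowest in E12 KO, at 6672 and 6950 CPM, and the amino acid genes highest there, at 866 and 942 CPM.

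Genes of the same pathways outside the module were counted in the same fit, where 21.9% of all genes were called higher and 24.5% lower in E12 KO, and 27.7% higher and 27.5% lower in E47 KO. In E12 KO, 14 of 20 other ER folding and redox factors were lower and 1 higher (median log2 change -0.35). Of 15 tested genes of ER-associated degradation, 12 were lower and none was higher by edgeR, with 13 and none at an unadjusted p under 0.05 and 11 and none by DESeq2 (median -0.33). Of 16 translocon and signal peptide genes, 10 were lower and 1 higher (median -0.30). In E47 KO these lists held 8, 7 and 7 lower and 4, 3 and 4 higher genes, with medians of -0.07, -0.12 and -0.04. Txndc5, an ER disulfide isomerase, had the smallest p of its list in both, at 458 and 495 CPM in E12 KO, against 921 and 901 CPM in E12 WT, and at 866 and 837 CPM in E47 KO, against 3031 and 3109 CPM in E47 WT. Exons of other entries cover 11.9% of the Txndc5 exons. Selenos, a membrane protein of ER-associated degradation, changed by -0.76 in E12, and Edem1, which trims glycans on misfolded proteins, by -0.52 in E47. Spcs3, a signal peptidase subunit, changed by -0.83 in E12.

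On the ATF4 side, 11 of 20 cytosolic tRNA synthetases were higher and 2 lower in E12 KO (median log2 change 0.26), and 5 were higher and 9 lower in E47 KO (median -0.18). The difference between the changes was past the test for 13 of them, with the E12 change above in 11. Among all genes, 22.9% were called with the E12 change above and 25.7% with it below. Lars, the leucyl enzyme, was at 192 and 213 CPM in E12 KO, against 102 and 105 CPM in E12 WT. Aars, the alanyl enzyme, was at 212 and 203 CPM in E47 KO, against 314 and 327 CPM in E47 WT, and Cars, the cysteinyl enzyme, changed by -0.64 there. Exons of Exosc6 and of a further entry cover 15.1% of the Aars exons. Aldh1l2, a mitochondrial folate enzyme, was at 59.1 and 67.3 CPM in E12 KO, against 28.2 and 31.3 CPM in E12 WT, and at 28.4 and 22.1 CPM in E47 KO, against 62.8 and 59.9 CPM in E47 WT. Its log2 changes of 1.09 in E12 and -1.27 in E47 were in opposite directions with no overlap. Without overlap, 35.0% of all genes were higher in E12 KO and 38.5% lower in E47 KO. Exons of D10Wsu102e on the other strand cover 14.1% of the Aldh1l2 exons, so its count is less certain. Of 13 such other one-carbon genes, 5 were higher and 3 lower in E12 KO, and 4 were higher and 3 lower in E47 KO. Among all genes tested, 21.9% were called higher and 24.5% lower in E12 KO, and 27.7% higher and 27.5% lower in E47 KO.

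The other amino acid genes were divided. Of 19, 7 were higher and 2 lower in E12 KO, and 6 were higher and 8 lower in E47 KO. The shares over all genes tested were 21.9% higher and 24.5% lower in E12 KO, and 27.7% higher and 27.5% lower in E47 KO. Slc38a1, a glutamine carrier, was at 102 and 98.8 CPM in E47 KO, against 10.5 and 9.79 CPM in E47 WT (log2 change 3.32). Its relative Slc38a2, a classic ATF4 target, was at 329 and 336 CPM in E47 KO, against 642 and 630 CPM in E47 WT (-0.94). In E12, Bcat1, which handles branched-chain amino acids, changed by 1.12. Of 15 tested other targets of the integrated stress response, 7 were higher and 5 lower in E12 KO, and 10 were higher and 4 lower in E47 KO. Among them Vldlr, a lipoprotein receptor, was at 9.75 and 8.53 CPM in E12 KO, against 43.3 and 50.9 CPM in E12 WT, and Gdf15, a stress-induced secreted factor, changed by -1.24 in E12. Ndrg1, a stress-responsive gene also raised by hypoxia, was at 73.0 and 79.5 CPM in E47 KO, against 17.9 and 18.9 CPM in E47 WT, and other entries cover 8.43% of its exons.

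Of 12 eIF2 kinase, phosphatase and exchange factor genes, 6 were higher and 2 lower in E12 KO, and 1 was higher and 2 lower in E47 KO. For the counts in this paragraph, the shares over all genes were 21.9% higher and 24.5% lower in E12 KO. In E47 KO they were 27.7% higher and 27.5% lower. Eif2ak2, the kinase PKR, was lower in both (-0.35 in E12 and -0.33 in E47). Of 8 tested other ER-anchored factors and their proteases, 1 was higher and 3 lower in E12 KO, and 1 was higher and 4 lower in E47 KO. Creb3l1 was the rise in each, by 0.57 in E12 and 0.44 in E47. Mitochondrial chaperones and proteases held 6 higher and 2 lower of 11 in E12 KO (median 0.38), and 3 higher and 2 lower in E47 KO (median 0.04). Hspa9, the mitochondrial HSP70, was at 607 and 670 CPM in E12 KO, against 295 and 297 CPM in E12 WT. Cytosolic heat shock genes held 1 higher and 4 lower of 14 in E12 KO, and 2 higher and 4 lower in E47 KO. The 2 small heat shock genes Cryab and Hspb1 changed by -1.12 and -0.91 in E12, and Hsph1 by -1.06 in E47. Exons of Hspb2 cover 17.0% of the Cryab exons.

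The 2 wild types were compared too, since they are the baselines of the knockouts. This comparison uses the same WT libraries as those above and is not independent of them. Of the 37 genes, 10 were higher and 12 lower in E12 WT than in E47 WT, and over all genes 27.8% were called higher and 27.6% lower. Among the folding factors, Hspa5, Pdia3, Pdia4, Sdf2l1 and Manf were higher in E12 WT, and Dnajb9 and Herpud1 lower. Sdf2l1 was at 73.9 and 67.3 CPM in E12 WT, against 48.7 and 49.7 CPM in E47 WT (log2 difference 0.52). Dnajb9 was at 32.4 and 29.3 CPM in E12 WT, against 52.4 and 52.1 CPM in E47 WT (-0.76). Atf3 was at 13.9 and 16.9 CPM in E12 WT, against 6.45 and 7.13 CPM in E47 WT (1.16), and Atf5 at 124 and 126 CPM in E12 WT, against 274 and 265 CPM in E47 WT (-1.11). Atf6 was 0.67 higher on the log2 scale in E12 WT, Slc7a11 lower by 1.53 and Ppp1r15a lower by 0.97. Endothelial, contractile, mesothelial and fibroblast markers, given above, differed between these wild types in the same libraries. All 6 mesothelial markers were called higher in E12 WT, with a median log2 difference of 6.36. The part of these markers in the differences was not tested.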

How the data were processed

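Polyadenylated RNA of vascular smooth muscle cells was sequenced in 8 libraries, 2 for each of 4 genotypes, without keeping strand per the labels' protocols. The authors deposited whole-number counts per gene, not normalized. FastQC, HISAT, featureCounts and GRCm38 (mm10) are named in the submitters' processing notes. Their versions, settings, gene annotation and counting unit (reads or fragments): not given in the sources used here. From the deposited counts, edgeR 4.0.16 in R 4.3.3 was run with its filter on low counts (minimum count 10), TMM scaling and a 4-group model without covariates on all 8 libraries. This left 13992 genes and 4 residual degrees of freedom. Each contrast used edgeR's quasi-likelihood test with Benjamini-Hochberg adjustment, and a call is an adjusted p under 0.05. Changes are log2 fold changes, KO over WT, with standard errors (SE) derived from the F statistic. The fit was tested on simulated data. The 37 genes and all lists were chosen with earlier results of these data known. All 37 are named. From each other list, the rule took up to 2 genes per knockout comparison with the smallest p past the test, and not all of these are printed. Marker lists are given by their ranges, with Acta2, Myh11 and Cnn1. Protein tails, part of the plan, were not used here. Of the list genes, Ero1a and Ero1b were matched by synonym. Gene positions and overlaps come from GENCODE M21, promoter windows from RefSeq. Slc7a5, Hyou1, Atf6 and Manf had no window and were not searched. Alternatives were DESeq2 1.42.0, its size factors in edgeR, scaling by library totals, no filter, the compared genotypes alone, and leaving out each of the 8 libraries. Libraries of a genotype differed by more than sampling noise, E12 WT most, and were counted as separate. Without molecular identifiers, reads are not separate molecules, so depth bounds the counting error alone.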

Additional observations from a re-analysis of the deposited data

Results flagged for a closer look

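For 24 of the 37 genes the changes in the 2 knockouts differed by the test of the difference itself, edgeR's quasi-likelihood test on the E12 change minus the E47 change. The shares over all genes tested were 25.7% with the E12 change below and 22.9% with it above. Values are log2 differences, and negative ones mean that the E12 change lay below the E47 change. Among the folding factors they were -0.51 in Hspa5, -0.25 in Hsp90b1, -0.30 in Calr, -0.30 in Canx, -0.51 in Pdia3, -0.24 in Pdia4, -0.33 in Dnajc3, -0.56 in Sdf2l1, -0.72 in Creld2, -0.80 in Manf and -0.41 in Hyou1. Among the sensors and transcription factors they were -0.42 in Xbp1, -0.62 in Atf4, -2.42 in Atf3, 1.06 in Atf5 and 0.44 in Atf6. Among the ATF4 amino acid genes they were 0.76 in Asns, 0.85 in Phgdh, 0.52 in Shmt2, 0.76 in Mthfd2, 1.53 in Slc7a11, 0.90 in Slc7a5 and -0.40 in Slc3a2, and in Trib3 the difference was 0.79. Atf3, Atf5, Asns, Phgdh, Shmt2, Slc7a5 and Slc3a2 were past the test in opposite directions in the 2 knockouts. Of these, the E47 calls of Asns, Phgdh and Shmt2 and the E12 call of Slc3a2 were lost under total-count scaling. Calls of Phgdh in E47, Slc7a5 in E12, and Shmt2 and Slc3a2 in both were lost in some settings that left out 1 library, while Atf3 and Atf5 were past the test in both knockouts in every alternative. With 2 libraries per genotype no library was set against the rest of its group.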

How the results depend on the processing

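Of the called changes of the 37 genes, 28 of 32 in E12, 18 of 29 in E47, 20 of 24 differences and 18 of 22 between the wild types were past the test in every alternative run, and 0 called genes changed sign in any of them. Scaling by library totals moved the E47 counts most, with 1 folding factor higher, 6 lower, 3 ATF4 amino acid genes lower and 1 feedback gene higher. By construction it moves all genes, by a median of 0.09 in E12 and 0.16 in E47. It changed the genes called overall in E12 to 4068 higher and 2783 lower, from 3065 and 3426, and in E47 to 5378 higher and 2638 lower, from 3876 and 3853. The count of ATF4 amino acid genes lower in E12, which is Slc3a2 alone, was 0 with library totals and with no filter and 0 to 1 when 1 library was left out. The count higher was 3 to 6 in E12 and 1 to 2 in E47 when 1 library was left out. Folding factors with the E12 change below were 7 to 10 when 1 library was left out, and 7 to 12 over all alternatives. Between the wild types, folding factors lower in E12 WT were 1 with library totals and 1 to 3 when 1 library was left out, and feedback genes higher 0 to 1. The cause was not tested. Where a genotype kept 1 library, it was assumed to vary like the others. No paired analysis was possible because the labels give the genotypes no shared replicate numbers. With 2 libraries per genotype, changes near 0.2 on the log2 scale, such as Hspa5, Calr and Pdia4 in E47, sat at the limit of what passed.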
